A study of Rattus norvegicus with 78 samples.

Results

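Rat sperm were compared between animals that had been given 1,2-dibromo-3-chloropropane (DBCP) and animals that had been given corn oil, each after a recovery period. The members are the arrays whose titles name these treatments with recovery. There are 38 of them among 78 arrays in all, 19 from DBCP animals and 19 from corn oil animals. The rats were of the Fischer 344 strain, the dose was 5 mg/kg per day and the exposure lasted 3 months. The controls carried corn oil alone. Both recovery groups had stopped receiving their treatment before sperm were taken, and the sources used here give neither the length of the recovery nor the age of the animals. The end of exposure, used below only as a point of reference, is covered by 20 DBCP and 20 corn oil arrays of other samples. The labels call the samples of a group biological replicates without saying that each is 1 animal. The p-values of limma rest on the spread between samples within the groups, taken over all 78 arrays. Whether this is a spread between animals is not stated.

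DBCP is a nematode fumigant known for damage to the germ line of the testis, and the loss of sperm that it causes can be lasting or reversible, depending on the dose. Mature sperm have packed their DNA with protamines and transcribe little. The RNA that they carry was mostly made by spermatids, while they built the tail, the acrosome and the condensed nucleus. Sperm released from a punctured cauda epididymis can be joined by leukocytes, by cells of the duct and its stroma and by blood. According to the labels' protocols the pellet was rinsed for a short time in an ammonium chloride solution that breaks open red blood cells.

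The labelled cell type was checked against its markers. Smcp of the mitochondrial capsule and Odf1 of the outer dense fibres lay near 14.10 in both groups on the log2 scale, where the highest value on any array was 14.69, and the protamine gene Prm1 lay at 12.87 ± 0.21 in corn oil and 12.82 ± 0.22 in DBCP samples (SD, n = 19 each). The mean level of 19 Sertoli and Leydig cell genes lay between 6.39 and 6.71 on the recovery arrays, where the array medians were 6.55 to 6.74. Transcripts of other cells were measured too. They included Cd74 of antigen-presenting cells (11.87 ± 0.25 in corn oil samples), Wfdc10a of the epididymal duct (12.14 ± 0.32) and the beta-globin gene Hbb (12.20 ± 0.46). The number of arrays limits the precision, and no depth applies to array values. Across probe sets, the r of any pair of recovery arrays was 0.889 to 0.986.

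Several recovery arrays stood apart from their group. On DBCP replicate 7, 583 genes lay more than 1 log2 unit from the median of the other DBCP arrays. Its sperm tail level was the highest of the 38 arrays (8.14), its stroma level the lowest (6.83), and the glutathione transferase gene Gsta4 read 9.15 against a median of 7.36 on the others. Corn oil replicate 11 had 146 such genes, among them Il33, an alarmin of barrier tissue (8.40 against 6.35). DBCP replicate 15 had 31, with higher values of Npy, Spz1, Tnp1 and Akap4. These 3 arrays had limma array weights of 0.18, 0.33 and 0.40 and belong to the 6 of the 78 arrays with a weight under 0.5. The rest of the 6 were DBCP arrays at the end of exposure, replicates 2, 13 and 20 (0.39, 0.25 and 0.32). Corn oil replicate 20 had high values of epididymal genes: Gpx5, a glutathione peroxidase of the duct, read 10.87 against 6.87, and 14 of 40 principal cell genes had their highest value of all 38 arrays there. Other arrays with more than 30 such genes were DBCP replicates 19 (70 genes) and 10 (50) and corn oil replicates 18 (68) and 4 (35), whose array weights were not under 0.5.

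**Figure D1:**
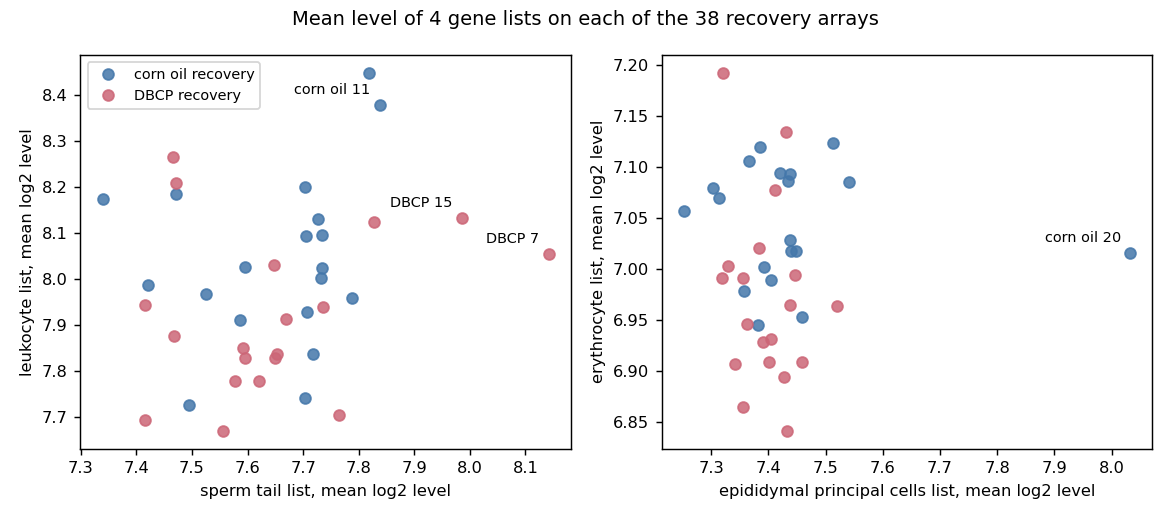
Mean log2 level of 4 gene lists on each of the 38 recovery arrays (blue, corn oil, 19 arrays; red, DBCP, 19 arrays), with sperm tail against leukocyte genes on the left and epididymal principal cell against erythrocyte genes on the right. DBCP replicates 7 and 15 have the highest sperm tail levels, corn oil replicate 20 stands alone at a principal cell level of 8.03, and the groups overlap on every axis.

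The comparison of the 2 recovery groups asks whether a difference between sperm of DBCP and corn oil animals was still measurable once exposure had ended. With limma, 0 of 29214 probe sets passed an adjusted p of 0.05 (0%), and the lowest adjusted p was 0.983. An unadjusted p under 0.05 was found for 1084 probe sets (3.71%), where 5% of the probe sets would be 1461, and an unadjusted p under 0.001 for 9, where 0.1% would be 29. Of the 1084, 695 were higher in DBCP samples (64.1%), a split that came to 47.9% with quantile normalization and 49.9% with each array centred on its median. Among the 14506 genes read from a probe set with a single symbol, 592 (4.08%) reached an unadjusted p under 0.05, with 352 higher (2.43%) and 240 lower (1.65%). Without DBCP replicate 7 the count over all probe sets was 2135 and without corn oil replicate 11 it was 732. Without the 6 arrays of low weight it was 2653. No probe set passed in any of these fits, and the lowest adjusted p without the 6 arrays was 0.427.

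**Figure D2:**
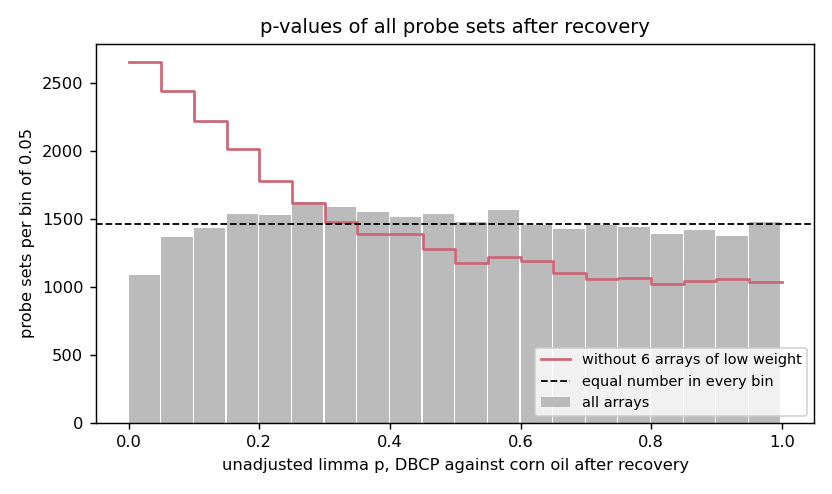
Number of probe sets (vertical axis) in each bin of 0.05 of the unadjusted limma p for DBCP against corn oil after recovery (horizontal axis), for all arrays (grey bars) and without the 6 arrays of low weight (red line), with the height of an even spread dashed. The first bin holds 1084 probe sets with all arrays, under the dashed line, and 2653 without the 6 arrays, above it.

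The arrays bounded most differences closely. The 95% interval of the log2 difference lay wholly within a 1.5-fold difference either way (0.585 on the log2 scale) for 29081 of 29214 probe sets (99.5%) and within 2-fold for 29205. The median distance from a difference to either end of its interval was 0.12, and 85.9% of the differences were smaller than 0.1 in size. Differences over 0.5 in size were found for 6 probe sets, against 77 at the end of exposure. Among single-symbol genes the highest difference was 0.27, and the lowest -0.56, that of the matrix gene Fn1 (fibronectin).

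For 24 genes the interval reached 1.5-fold, and 21 of these had a difference below 0. These genes are described for the width of their intervals and were chosen after their values were seen. Prg4, a lubricating proteoglycan, had a difference of -0.53 ± 0.61 (95% interval), and Fn1 had -0.56 ± 0.59 (95% interval). The others below 0 included the protease inhibitor Slpi (-0.40), the chemokine Ccl24 (-0.36), the lymphatic and macrophage receptor Lyve1 (-0.38), the mRNA decay factor Zfp36 (-0.33) and the NADPH oxidase subunit Cybb (-0.30). The 3 above 0 were the spermatid mitochondrial gene Spata19 (0.14 ± 0.51, 95% interval), Ms4a14 (0.13) and the beta-defensin Defb23 (0.19). Of 141 genes in the sperm lists, Spata19 and the spermatid RNA-binding gene Ybx3 were the 2 whose interval reached 1.5-fold. Over all 14506 single-symbol genes 24 did, a smaller share. The intervals of the other genes of the sperm lists lay within 1.5-fold in this fit of all arrays, without adjustment for the number of genes.

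Red cell transcripts led the lower side of the comparison by p, although none passed limma's test. Hemoglobin of adult red cells joins alpha and beta globin chains with heme, and the enzyme encoded by Alas2 starts heme synthesis in red cell precursors. The promoters of 4 genes of this group are shown because the genes lay lower together in DBCP samples. Each is the 150 bases before the start of the gene in RefSeq's GRCr8 build, 5′ to 3′ on the strand of the gene. Capitals mark matches, on either strand, to the GATA motif (AGATAA or AGATAG or TGATAA or TGATAG), the CACCC motif, the CCAAT box and TATAA, and neighbouring matches run together.
Hbb, chr1:167663722-167663871, minus strand: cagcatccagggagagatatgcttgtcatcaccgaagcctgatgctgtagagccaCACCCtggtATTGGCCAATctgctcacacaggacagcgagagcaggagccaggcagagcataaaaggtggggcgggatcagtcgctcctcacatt
Hbb-b1, chr1:167643521-167643670, minus strand: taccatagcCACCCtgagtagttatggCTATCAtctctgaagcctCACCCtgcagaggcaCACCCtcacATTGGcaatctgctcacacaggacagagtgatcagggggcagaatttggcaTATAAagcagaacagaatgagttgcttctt
Hba-a3, chr10:15816944-15817093, minus strand: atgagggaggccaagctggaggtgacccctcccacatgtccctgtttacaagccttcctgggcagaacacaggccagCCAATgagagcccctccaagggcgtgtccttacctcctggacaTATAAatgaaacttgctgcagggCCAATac
Alas2, chrX:22895300-22895449, plus strand: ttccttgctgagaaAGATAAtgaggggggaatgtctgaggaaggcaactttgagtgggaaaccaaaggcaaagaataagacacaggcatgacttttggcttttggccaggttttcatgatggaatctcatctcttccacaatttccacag

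The Hbb-b1 window holds 1 GATA match, 3 CACCC, 1 CCAAT and 1 TATAA. The Hbb window holds 1 CACCC and 2 CCAAT, that of Hba-a3 2 CCAAT and 1 TATAA, and that of Alas2 1 GATA match. In windows of the same length before 33469 rat genes, 16.6% held a GATA match, 35.2% CACCC, 23.5% CCAAT and 15.2% TATAA. These letters describe the windows and say nothing of binding.

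Hbb-b1, a beta-globin gene, ranged from 9.97 to 11.54 in corn oil samples with a median of 11.00, and from 10.00 to 11.40 in DBCP samples with a median of 10.31. The groups overlapped over nearly all of this range, and 17 of 19 DBCP samples lay below the corn oil mean. The log2 difference was -0.50 ± 0.14 (SE; limma unadjusted p = 5.92e-04, adjusted p = 0.983), with a 95% interval from -0.78 to -0.22. Hbb, the neighbouring beta-globin gene, had a lowest, median and highest value of 11.09, 12.23 and 12.76 in corn oil and of 11.29, 11.62 and 12.52 in DBCP samples. Its difference was -0.47 ± 0.14 (limma adjusted p = 0.983), and 6 corn oil samples lay above every DBCP sample. Both beta-globin genes are near copies of each other, so their probe sets can share signal and are not independent readings.

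Alas2 ranged from 7.86 to 9.29 in corn oil samples (median 8.64) and from 7.46 to 9.11 in DBCP samples (median 8.06). It lay below the corn oil mean in 17 of 19 DBCP samples, with a difference of -0.48 ± 0.13 (limma adjusted p = 0.983). The alpha-globin gene Hba-a3 had medians of 7.79 and 7.54 and a difference of -0.22 ± 0.07, below the corn oil mean in 16 of 19 samples. Fech, which places iron in heme, had a difference of -0.13 ± 0.08. The other globin genes are embryonic or fetal in type and did not follow. Hbe1 had 0.13 ± 0.08, Hbg1 0.17 ± 0.08 and Hbe2 -0.02 ± 0.07, all at levels below the array medians or close to them.

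**Figure D3:**
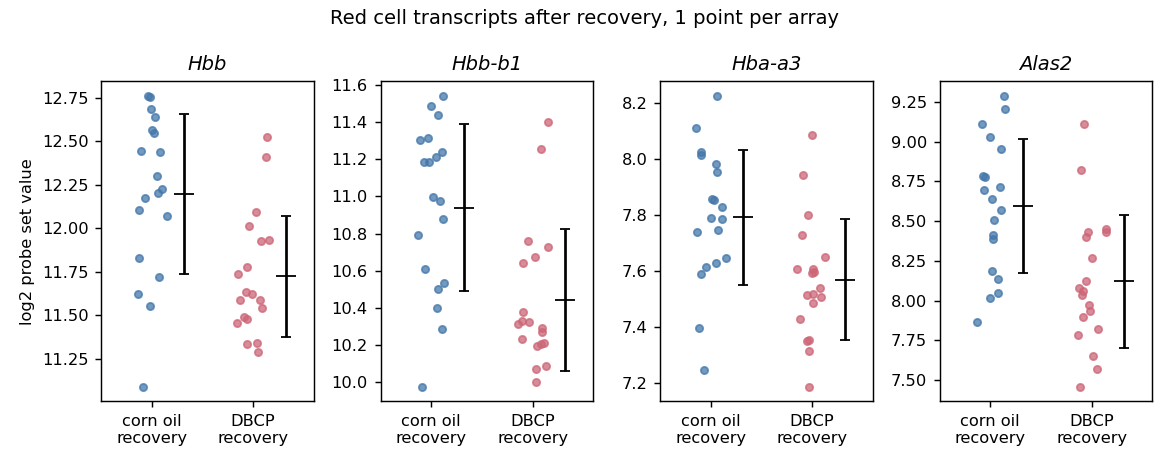
Log2 probe set value of Hbb, Hbb-b1, Hba-a3 and Alas2 (vertical axes, each with its own scale) in the 19 corn oil (blue) and 19 DBCP (red) recovery arrays, 1 point per array, with the mean and SD of each group in black. The DBCP points lie lower on average in each panel, by 0.22 (Hba-a3) to 0.50 (Hbb-b1), and the groups overlap in all 4.

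The remaining red cell genes showed little difference. The median level over the erythrocyte list was 6.57, within the range of the recovery array medians (6.55 to 6.74), and a difference in dim genes could be missed. The 7 membrane genes had a median of -0.01, with 5 of 7 below 0, among them Slc4a1, the anion exchanger of the red cell (-0.10 ± 0.06), and Epb42, which anchors it (0.07 ± 0.06). The 5 regulators had a median of -0.04, with all 5 below 0 and none under an unadjusted p of 0.05. They included the erythroid transcription factors Gata1 (-0.02 ± 0.06) and Klf1 (-0.06 ± 0.05). Over all 26 erythrocyte genes the median was -0.03 with 19 below 0, where 45.7% of single-symbol genes were below 0, and 5 had an unadjusted p under 0.05, 4 of them lower (19.2% for both directions, against 4.08% of single-symbol genes). With quantile normalization and with centred arrays 19 were again below 0, where 52.6% and 54.5% of single-symbol genes were. The mean level of the list ran from 6.95 to 7.12 in corn oil and from 6.84 to 7.19 in DBCP samples. In these bulk samples, fewer cells of a type and less RNA per cell cannot be told apart.

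The values of red cell genes differed between the sets of replicate numbers, for which the labels give no meaning. Hbb-b1 had -0.30 in numbers 1 to 10 and -0.72 in numbers 11 to 20, Hbb -0.23 and -0.74, Alas2 -0.36 and -0.60, and Hba-a3 -0.08 and -0.38. Each set gave the same sign. Leaving out any 1 array moved Hbb-b1 between -0.55 and -0.47. At the end of exposure, in other samples, the differences were -0.34 for Hbb-b1, -0.28 for Hbb, -0.26 for Alas2 and -0.14 for Hba-a3, and 0 of them passed there.

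The red cell genes Hbb-b1 and Alas2 varied together among samples of the same treatment. Over the 19 corn oil arrays Hbb-b1 and Alas2 correlated at r = 0.856 (Spearman rho = 0.839; adjusted p = 4e-05 for r, two-sided permutation test, Benjamini-Hochberg over 8 relations). Over the 19 DBCP arrays they correlated at r = 0.859 (rho = 0.716; permutation adjusted p = 4e-05). The raw p of 1e-05 is the smallest that 100000 permutations can give. Without the 2 arrays farthest from the median of Hbb-b1, r was 0.788 and 0.681. Hbb-b1 and Cd74 did not correlate past the test in either group (r = 0.311 and -0.0999; permutation adjusted p = 0.393 and 0.687), nor did Cd74 and the tail gene Akap4 (r = 0.196 and 0.140; adjusted p = 0.678 and 0.687). Hbb-b1 and Akap4 correlated in DBCP samples (r = 0.649, rho = 0.640; permutation adjusted p = 0.00701, and r = 0.608 without the 2 farthest arrays). In corn oil samples they had r = 0.105 (rho = 0.198; permutation adjusted p = 0.687). Over both groups together, each centred on its mean (38 arrays), this pair had r = 0.379 (permutation adjusted p = 0.0373) and rho = 0.288 (adjusted p = 0.160), so that the relation did not pass by rank. Whether the correlations of the groups differ was not tested.

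Leukocyte transcripts were the list with the lowest median. Of 40 genes, 32 had a difference below 0, the median was -0.14, and 8 had an unadjusted p under 0.05, all 8 lower (20% of the list, against 1.65% of single-symbol genes that were lower). No gene passed limma's test over all probe sets. The median was -0.13 with quantile normalization, -0.16 with centred arrays and -0.15 without the 6 arrays of low weight, and it was -0.08 in replicate numbers 1 to 10 and -0.15 in 11 to 20. The mean level of the list ran from 7.73 to 8.45 in corn oil samples (median 8.03) and from 7.67 to 8.27 in DBCP samples (median 7.88). The groups overlapped over most of that range. At the end of exposure the median was -0.08, with 36 of 40 below 0.

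Among the roles of leukocyte genes, the myeloid genes had the lowest median, -0.17 over 14 genes, 11 of them below 0. Csf1r, the receptor that sustains macrophages, ranged from 7.67 to 9.03 in corn oil samples (median 8.35) and from 7.51 to 8.65 in DBCP samples (median 8.07). The groups overlapped, 3 corn oil samples lay above every DBCP sample, and the difference was -0.27 ± 0.10 (limma adjusted p = 0.983). Fcer1g, the signalling chain of Fc receptors, had medians of 9.96 and 9.53 and a difference of -0.32 ± 0.12, and 5 DBCP samples lay below every corn oil sample. Lysozyme (Lyz2) had -0.28 ± 0.15, the macrophage adhesion receptor gene Adgre1 -0.19 ± 0.09, Cd68 -0.15 ± 0.08 and Itgam -0.22 ± 0.12. The neutrophil genes S100a8 (0.00 ± 0.05) and S100a9 (0.03 ± 0.08), which had low values in both groups, and the endotoxin co-receptor gene Cd14 (0.09 ± 0.07) lay near 0.

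Genes of class II antigen presentation had a median of -0.14, with 6 of 7 below 0. Cd74, the class II invariant chain, ranged from 11.31 to 12.31 in corn oil samples (median 11.92) and from 11.02 to 12.12 in DBCP samples (median 11.75), with a difference of -0.19 ± 0.10. RT1-Bb, a rat class II beta chain, had -0.24 ± 0.11, RT1-Da -0.18 ± 0.11 and RT1-Db1 0.01 ± 0.05. T and natural killer cell genes were mixed, with a median of -0.07 and 5 of 9 below 0. Cd4, a co-receptor of helper T cells that rat macrophages also carry, had medians of 8.91 and 8.57 and a difference of -0.31 ± 0.11 (limma adjusted p = 0.983). Nkg7, of cytotoxic granules, had -0.23 ± 0.10 and the chemokine Ccl5 -0.15 ± 0.08. Genes of the CD3 chains of the T cell receptor complex, Cd3e (-0.08 ± 0.06), Cd3d (0.02 ± 0.05) and Cd3g (0.04 ± 0.05), lay near 0. The B cell gene Cd79b had -0.06 ± 0.05. Spi1, a transcription factor of myeloid and B cells outside the list, was among the 10 genes of smallest p on the lower side (-0.20 ± 0.06). How far cell content accounts for these values was not tested.

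**Figure D4:**
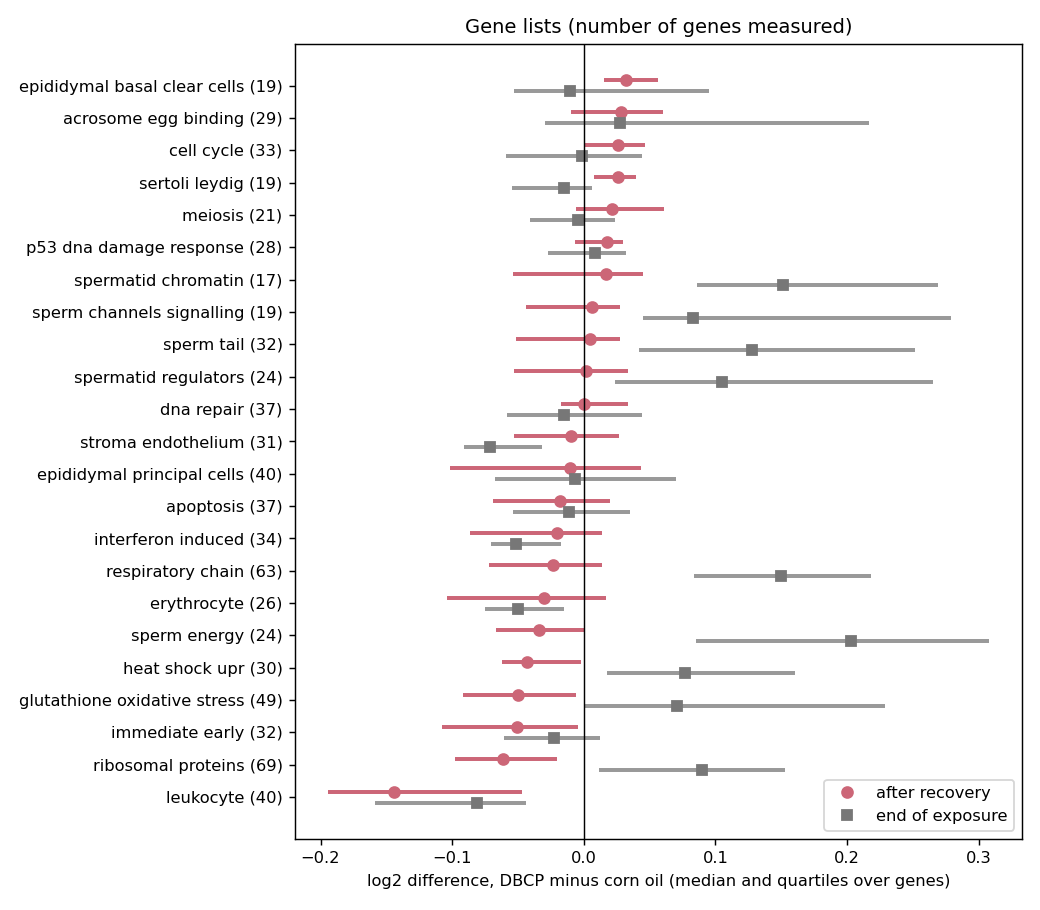
Median log2 difference, DBCP minus corn oil, of each gene list after recovery (red circles) and at the end of exposure (grey squares), with the range between the quartiles over the genes of the list as bars and the number of genes in brackets. After recovery the leukocyte list is lowest at -0.14 and the other medians lie between -0.06 and 0.03. At the end of exposure the chromatin, tail, energy, channel and regulator lists lie between 0.08 and 0.20, and the acrosome and egg-binding list lies at 0.03.

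Immediate early genes, which cells switch on within minutes of a stimulus, had a median of -0.05 with 26 of 32 below 0, and 5 had an unadjusted p under 0.05, all lower (15.6%, against 1.65% of single-symbol genes). Nr4a1, an orphan nuclear receptor, had medians of 7.36 and 7.01 and a difference of -0.27 ± 0.10, and 17 of 19 DBCP samples lay below the corn oil mean. Dusp1, a phosphatase of MAP kinases, ranged from 8.48 to 10.52 in corn oil and from 8.42 to 10.31 in DBCP samples, with a difference of -0.35 ± 0.16. Egr1 had -0.28 ± 0.14 and Egr3 -0.12 ± 0.05. The highest list levels were 7.68 and 7.67, on 1 DBCP and 1 corn oil array. Without the 6 arrays of low weight the median was -0.03 with 24 of 32 below 0.

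Genes induced by interferon had a median of -0.02 with 23 of 34 below 0 (67.6%, against 45.7% of single-symbol genes), and 4 had an unadjusted p under 0.05, all lower (11.8%, against 1.65%). Below 0 were 26 with quantile normalization and 25 with centred arrays, where 52.6% and 54.5% of single-symbol genes were. The antiviral enzyme genes Oasl2 and Oas1a had -0.21 ± 0.07 and -0.17 ± 0.06. Ifitm3, a membrane protein that blocks viral entry, had medians of 7.98 and 7.74 and a difference of -0.22 ± 0.09. Ifi27 lay at -0.02 ± 0.05. The adjusted p of limma was 0.983 or above for each.

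Sperm transcripts differed little between the recovery groups. In the chromatin list, which holds genes that replace histones and condense the sperm nucleus, 8 of 17 genes were below 0 and the median was 0.02 (-0.02 without DBCP replicate 7 and also without the 6 arrays of low weight). Prm1 ranged from 12.37 to 13.26 in corn oil samples (median 12.87) and from 12.38 to 13.17 in DBCP samples (median 12.83), nearly the same range, with a difference of -0.05 ± 0.07. Prm2 had -0.04 ± 0.17 and its interval ran from -0.39 to 0.30. The transition protein genes Tnp1 and Tnp2, which act between histones and protamines, had 0.11 ± 0.22 and -0.15 ± 0.14. No chromatin gene had an unadjusted p under 0.05.

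In the tail list 16 of 32 genes were below 0 and the median was 0.00, a value that turned to -0.01 with centred arrays, -0.02 without DBCP replicate 7 and -0.03 without the 6 arrays of low weight. Akap4, which builds the fibrous sheath around the tail, ranged from 8.35 to 9.94 in corn oil (median 9.14) and from 8.31 to 10.38 in DBCP samples (median 9.24). The difference was -0.02 ± 0.19, and the highest DBCP value was that of replicate 15. Smcp and Odf1 had 0.00 ± 0.03 and 0.01 ± 0.03, near the top of the scale, where a difference could be compressed. Tekt5, a tektin of the tail, had -0.12 ± 0.11 and Rsph9, of the radial spokes, -0.11 ± 0.10.

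Energy genes of sperm had a median of -0.03 with 18 of 24 below 0 and 0 under an unadjusted p of 0.05. The median was -0.05 without DBCP replicate 7 and -0.07 without the 6 arrays of low weight, with 20 of 24 below 0 each time. The lactate dehydrogenase gene of germ cells, Ldhc, had -0.07 ± 0.15, the glycolytic gene Tpi1 0.00 ± 0.11, the glycerol kinase gene Gk2 0.13 ± 0.11 and the adenylate kinase gene Ak7 -0.10 ± 0.09. The acrosome and egg-binding list had a median of 0.03 with 10 of 29 below 0, and 0.01 with 14 below 0 without the 6 arrays of low weight. There the sperm head gene Crisp2 had -0.01 ± 0.16, Spa17 0.03 ± 0.17, Adam1a 0.09 ± 0.06 and Adam18 0.07 ± 0.05. Channel and signalling genes had a median of 0.01, which turned to -0.01 under both other scalings, to -0.02 without DBCP replicate 7 and to -0.03 without the 6 arrays of low weight. Tssk4, a kinase of spermatids, had 0.11 ± 0.05, the 1 gene of 19 in this list with an unadjusted p under 0.05, and Prkaca, a catalytic subunit of protein kinase A, had -0.10 ± 0.05.

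Among spermatid regulators, the median was 0.00 with 12 of 24 below 0 (0.00 with quantile normalization and -0.01 with centred arrays). It was -0.03 without DBCP replicate 7 and also -0.03 without the 6 arrays of low weight, with 16 and 17 below 0. Ybx3, which binds and stores spermatid mRNA and is also made by other cells, ranged from 9.42 to 10.45 in corn oil samples (median 9.83) and from 8.94 to 10.10 in DBCP samples (median 9.56). It lay below the corn oil mean in 17 of 19 DBCP samples, with a difference of -0.36 ± 0.11 (limma adjusted p = 0.983). Spata3 had -0.01 ± 0.14 and Piwil1, of the piRNA pathway, 0.07 ± 0.04. The meiosis list had a median of 0.02 with 6 of 21 below 0 (10 with quantile normalization and 6 with centred arrays). Its level ran from 6.09 to 6.42, under all array medians, and Tex15 (0.10 ± 0.05), needed for meiotic recombination, and Sycp2 (0.10 ± 0.06), of the synaptonemal complex, had the smallest p.

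DNA repair genes had a median of 0.00, with 18 of 37 below 0, and -0.02 and -0.01 with quantile normalization and centring. The 4 genes with an unadjusted p under 0.05 were all higher (10.8% of the list, against 2.43% of single-symbol genes that were higher). Lig4, the ligase of double-strand break joining, ranged from 5.72 to 6.79 in corn oil samples (median 6.20) and from 5.86 to 6.79 in DBCP samples (median 6.45), and 2 of 19 DBCP samples lay below the corn oil mean. Its difference was 0.21 ± 0.07 (limma unadjusted p = 0.00446, adjusted p = 0.983). In replicate numbers 1 to 10 Lig4 had 0.09 ± 0.11, and in 11 to 20 it had 0.34 ± 0.09. Nbn, which senses such breaks, had 0.11 ± 0.04. With quantile normalization Nbn had 0.08 ± 0.05, and without the 6 arrays of low weight 0.07 ± 0.04. The base excision gene Apex1 had 0.07 ± 0.05, Alkbh3, which reverses alkylation, -0.03 ± 0.04 and Mgmt, which removes alkyl groups from guanine, 0.01 ± 0.05.

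Targets of p53 had a median of 0.02 with 10 of 28 below 0 and none under an unadjusted p of 0.05. With quantile normalization 12 of the 28 were below 0 and with centred arrays 14. Cdkn1a, the p53 target that halts the cell cycle, ranged from 6.68 to 7.44 in corn oil and from 6.60 to 7.51 in DBCP samples, with a difference of 0.01 ± 0.05 and an interval from -0.10 to 0.12. Mdm2, which degrades p53, had -0.07 ± 0.05. Apoptosis genes had a median of -0.02 with 21 of 37 below 0 (-0.01 without the 6 arrays of low weight), and Cflar, an inhibitor of death receptor signalling, had -0.13 ± 0.06. In the cell cycle list 8 of 33 genes were below 0 and the median was 0.03, or 0.02 both without DBCP replicate 7 and without the 6 arrays of low weight. With quantile normalization 11 of the 33 were below 0 and with centred arrays 13. Of the 33, 4 had an unadjusted p under 0.05 (12.1%, against 4.08% of single-symbol genes), 3 higher and 1 lower. Cdc25b, a phosphatase of mitotic entry, had -0.30 ± 0.10 and lay below the corn oil mean in 17 of 19 DBCP samples, while the mitotic kinase gene Aurka had 0.11 ± 0.05.

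Genes of glutathione and oxidative stress had a median of -0.05 with 39 of 49 below 0, and -0.08 with 36 below 0 without the 6 arrays of low weight. Of the 49, 3 had an unadjusted p under 0.05 (6.12%, against 4.08% of single-symbol genes), 2 lower and 1 higher. Prdx5, a peroxiredoxin, had 0.13 ± 0.05 and Gpx3, a secreted peroxidase, -0.23 ± 0.10. Gstm1 and Gstm5, glutathione transferases that can detoxify halogenated compounds, had -0.10 ± 0.11 and -0.06 ± 0.12, and the heme oxygenase gene Hmox1 had -0.01 ± 0.07, with 1 high DBCP value of 7.36. Heat shock and unfolded protein genes had a median of -0.04 with 23 of 30 below 0 and 0 under an unadjusted p of 0.05, and -0.07 without the 6 arrays of low weight. The chaperone genes Calr and Hsp90b1 had -0.19 ± 0.14 and -0.15 ± 0.13, and the 8 probe sets of Hspa8, which has near copies in the genome, had differences between -0.07 and -0.02.

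Ribosomal protein genes lay slightly below 0 as a list: 57 of 69 were below 0 with a median of -0.06, and 3 had an unadjusted p under 0.05 (4.35%, near the 4.08% of all single-symbol genes). The median was -0.09 without DBCP replicate 7 and also -0.09 without the 6 arrays of low weight. With quantile normalization the median was -0.05 and with centred arrays -0.07. The probe sets of Rps29 had differences of -0.12 to -0.13, Rps27 had -0.22 ± 0.07 and Rpl6 -0.17 ± 0.07, all genes with many near copies that can share signal. Respiratory chain genes had a median of -0.02 with 38 of 63 below 0, which was -0.05 with 47 below 0 without DBCP replicate 7 and -0.06 with 50 below 0 without the 6 arrays of low weight. Without corn oil replicate 11 alone it was -0.01. Ndufa2, a subunit of complex I, was the 1 gene there with an unadjusted p under 0.05 (0.17 ± 0.05), and 18 of 19 DBCP samples lay above the corn oil mean. Cox8a of complex IV had 0.01 ± 0.09.

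Genes of the epididymal duct had medians near 0. Principal cell genes had -0.01 with 23 of 40 below 0 and 0 under an unadjusted p of 0.05, and basal and clear cell genes had 0.03 with 4 of 19 below 0 (0.02 without DBCP replicate 7). Gpx5 had a difference of -0.25 ± 0.25, which was -0.05 ± 0.22 without corn oil replicate 20, and Rnase10 went from -0.25 ± 0.17 to -0.05 ± 0.12 in the same way. Foxi1, a transcription factor of clear cells, had 0.05 ± 0.14 and Atp6v0d2, a subunit of their proton pump, 0.03 ± 0.16. Sertoli and Leydig cell genes had a median of 0.03 with 4 of 19 below 0 (7 with quantile normalization and 5 with centred arrays).

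Stroma and endothelium genes had a median of -0.01 with 19 of 31 below 0, 0.00 with 16 below 0 without DBCP replicate 7 and 0.02 with 13 below 0 without the 6 arrays of low weight. Of the 31, 3 had an unadjusted p under 0.05, all lower (9.68%, against 1.65% of single-symbol genes that were lower). Dcn, a proteoglycan of connective tissue, ranged from 10.21 to 12.38 in corn oil samples (median 11.04) and from 9.72 to 11.62 in DBCP samples (median 10.75). Its difference was -0.35 ± 0.15, and 4 DBCP samples lay below every corn oil sample. Rhoj, a small GTPase of endothelium, had medians of 7.41 and 7.22 and a difference of -0.18 ± 0.05, below the corn oil mean in 16 of 19 samples.

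The 10 genes with the smallest p on the higher side had differences between 0.14 and 0.25. They were Ms4a10, Lrp12, the deubiquitinase gene Josd1, the prion protein gene Prnp, Ccdc59, the guidance receptor gene Robo1, Ndufa2, the ribosome assembly gene Utp23, Ddah1, which breaks down dimethylarginine, and Ppcs, of coenzyme A synthesis. Ms4a10 ranged from 6.17 to 6.57 in corn oil (median 6.37) and from 6.22 to 6.71 in DBCP samples (median 6.51), and 7 DBCP samples lay above every corn oil sample. Its difference was 0.15 ± 0.04 (limma adjusted p = 0.983). Josd1 had the largest difference of the 10 (0.25 ± 0.07). The second probe set of Lrp12 had 0.04 beside the 0.16 ± 0.05 of the first.

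The 10 genes with the smallest p on the lower side had differences between -0.50 and -0.16. Of these, 4 were the red cell genes Hbb-b1, Alas2, Hbb and Hba-a3, and Rhoj, Spi1 and Ybx3 are described above. The others were Rbm38, an RNA-binding target of p53 that red cell precursors also use (-0.29 ± 0.09), Mnt, a partner of Max that opposes Myc (-0.16 ± 0.05), and Cd40lg, the T cell ligand of CD40 (-0.17 ± 0.05). Rbm38 ranged from 7.57 to 8.68 in corn oil samples (median 7.94) and from 7.36 to 8.23 in DBCP samples (median 7.63), and 17 of 19 DBCP samples lay below the corn oil mean.

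The 10 genes with the smallest p at the end of exposure were then read after recovery. They were chosen from other samples, and none had passed there (lowest limma adjusted p = 0.103). After recovery all 10 had an interval that held 0. Asns, which makes asparagine, ranged from 6.95 to 7.58 in corn oil samples (median 7.28) and from 6.97 to 7.74 in DBCP samples (median 7.26). Its difference was 0.06 ± 0.09, where it had been 0.45. The lipid carrier gene Stard10 had 0.02 ± 0.12 after 0.54, the glycolytic gene Eno1 -0.03 ± 0.07 after 0.33, and the ubiquitin hydrolase gene Uchl1 0.02 ± 0.08 after 0.34. Fndc8 had -0.13 ± 0.13 after 0.55, Mea1, a gene of male germ cells, -0.03 ± 0.12 after 0.52, and Vsig1 0.04 ± 0.16 after 0.66. Coil of Cajal bodies had 0.05 ± 0.09 after 0.36 and the tubulin gene Tuba1c -0.05 ± 0.12 after 0.48. Sgpl1, which breaks down sphingosine phosphate, had been lower (-0.18) and had 0.01 ± 0.04. Since the genes were chosen for their values at the end of exposure, these pairs are a description.

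**Figure D5:**
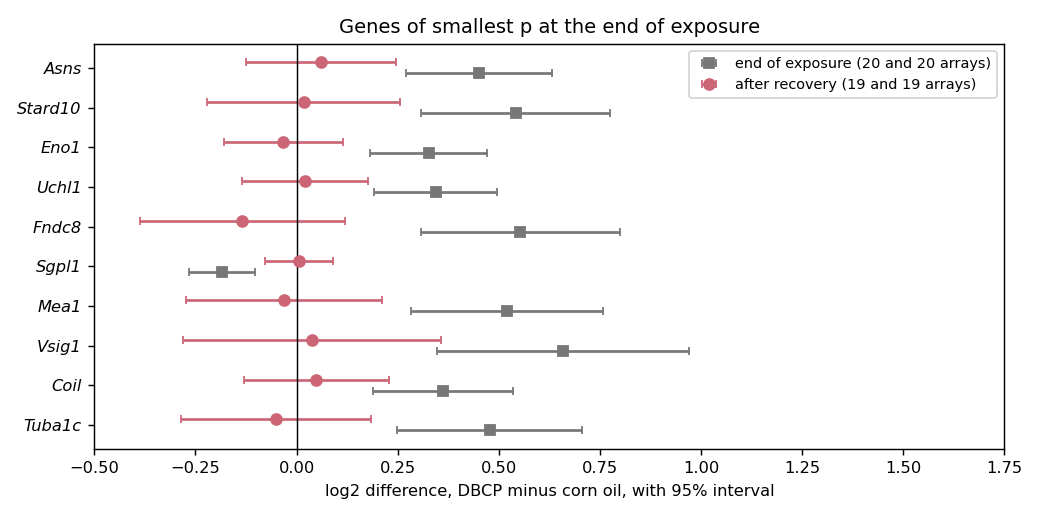
Log2 difference, DBCP minus corn oil, with its 95% interval (horizontal axis) for the 10 genes of smallest p at the end of exposure, shown there (grey squares) and after recovery (red circles). All 10 red intervals hold 0, with Vsig1 the widest, and the grey values from which the genes were chosen lie between -0.18 and 0.66.

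The test of whether the DBCP difference itself differed between the time points also gave 0 of 29214 probe sets (0%), with a lowest limma adjusted p of 0.454. At an unadjusted p under 0.05 there were 3170, where 5% of the probe sets would be 1461. The 5 genes with the smallest p were Rab18, Fndc8, Vegfc, Mief1 and Mettl7b. Vegfc, a growth factor of lymphatic vessels, had 0.19 ± 0.06 after recovery against -0.13 at the end of exposure, and 17 of 19 DBCP recovery samples lay above the corn oil mean. The GTPase gene Rab18 had -0.18 and 0.19 ± 0.06, with 0.03 after recovery at its second probe set. The sperm energy list, in which all 24 genes had been above 0 at the end of exposure (median 0.20), had 6 of 24 above 0 after recovery, and the median of the differences of effects was -0.24. For the respiratory chain the end median was 0.15 (57 of 63 above 0) and that of the differences of effects was -0.18, and for ribosomal proteins these were 0.09 (55 of 69 above 0) and -0.18. No member passed. Of all 14506 single-symbol genes, 6482 were above 0 at the end of exposure, and their median difference of effects was 0.01. The end group of DBCP holds arrays of low weight (replicates 2, 13 and 20). The end medians and the medians of the differences of effects were not read without these arrays.

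The last comparison asked whether samples of DBCP animals varied more among themselves than those of corn oil animals. On absolute deviations from the group median, limma gave 0 of 29214 probe sets (0%), with a lowest adjusted p of 1.00. An unadjusted p under 0.05 was found for 768, where 5% of the probe sets would be 1461, and 365 of the 768 were wider in DBCP samples. The median SD of a probe set was 0.189 in corn oil and 0.194 in DBCP samples. It was 0.175 in DBCP samples without replicate 7 and 0.181 in corn oil samples without replicate 11. The SD was larger in DBCP samples for 54.9% of probe sets, and for 38.5% without DBCP replicate 7, so that this share turned on 1 array. The share was not read with an array left out of both groups. The smallest p were those of Sntb1, of the dystrophin complex (SD 0.24 in corn oil and 0.11 in DBCP samples), Klhl15 (0.10 and 0.21), Actrt3, an actin-related protein of the sperm head (0.08 and 0.20), the vitamin E carrier gene Afm (0.26 and 0.13) and the transcription factor gene Zbtb17 (0.07 and 0.15).

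Over 38 arrays the first principal component held 33.4% of the variance and had its highest scores on DBCP replicate 7, corn oil replicate 11, DBCP replicate 15 and corn oil replicate 4. The second held 6.86% and the third 5.78%. On the third, the spermatid genes Akap4, Tnp1, Spz1 and Fabp9 stood opposite to Prg4, Fn1, Ccl2, Slpi, Lyve1 and Dusp1, and the group means were -0.95 ± 9.19 in corn oil and 0.95 ± 10.2 in DBCP samples (SD, n = 19 each). The groups overlapped on all 3 components.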

How the data were processed

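Per the labels, 1 rat array was made per sample from total sperm RNA. The authors deposited log2 values per probe set for 78 arrays. The submitters' processing notes name limma and no other tool. How background, normalization and summarisation were handled is not stated there or in the labels. No further scaling was applied.

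With limma 3.58.1 (R 4.3.3; lmFit, eBayes), the 4 group means were estimated from all 78 arrays together, with Benjamini-Hochberg adjustment over 29214 probe sets at 0.05. The spread was tested on absolute deviations from the group median in the same model. Intervals are limma's 95% intervals. The fit of the differences and the spread test were run on simulated data with probe sets drawn independently, and the intervals were not checked there. Genes are named from probe sets with 1 symbol in the platform annotation (15310 probe sets, 14506 genes; 323 had several symbols and 13581 none), by the probe set of highest mean, and 15279 matched the RefSeq table. The 23 lists held 893 entries, 753 of them on the array. Odf1 also stands in the energy list.

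The members, lists and tests were chosen with earlier results of these data known. Genes were named by rule: the 10 higher and 10 lower genes of smallest p, the 10 of smallest p at the end of exposure, 5 each for the difference of effects and the spread, the 2 of smallest p and 2 brightest of each list, 13 genes chosen for their known roles and the red cell list. Leukocyte genes were grouped by role, and the genes named for wide intervals and on single arrays were chosen after their values were seen. List medians carry no test. Alternatives were other scalings, a filter on dim probe sets, the recovery groups alone, blocks, array weights, another variance prior, 1 probe set per gene, sets of replicate numbers, a threshold of 0.1 and leaving out each array. Leaving out the 6 arrays of low weight and fitting single-symbol probe sets alone were added after the data were seen. Correlations used 100000 permutations (scipy 1.17.1).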

Additional observations from a re-analysis of the deposited data

How the results depend on the processing

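No probe set passed in any of 52 other settings for the recovery comparison, 49 for the difference of effects or 48 for the spread, an adjusted p of 0.1 among those for the first. At an unadjusted p under 0.05, where the reported count is 1084, limma gave 505 among probe sets brighter than the median, 596 with 1 probe set per gene (both test fewer probe sets), 2701 with array weights, 1948 in replicate numbers 11 to 20 and 2653 without the 6 arrays of low weight. Leaving out each of 38 arrays gave 732 to 2135. Numbers 1 to 10 gave 737. The cause was not tested. Intervals within 1.5-fold numbered 14525 among bright probe sets and 14482 with 1 per gene, which test fewer, and 29015 to 29123 with an array left out. With the replicate number as a block 0 passed and 1014 had an unadjusted p under 0.05. The numbers did not pair the samples: over 18 shared numbers, the deviations of same-numbered samples correlated at r from -0.32 to 0.51 (median -0.03), 6 pairs exceeded 0.1, and 2 samples correlated best with their own number. Of 175 named genes under 48 settings each, 1 value turned sign with both values beyond their SE: Cd14 had -0.095 in replicate numbers 11 to 20 and 0.09 as reported. The median distance from a difference to the end of its unadjusted 95% interval was 0.12, and much larger differences did not pass after adjustment over all probe sets (Hbb-b1, -0.50). Probe sets near the top of the scale can hide a rise.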

Other observations

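On corn oil recovery replicate 20 the genes of the upper epididymis stood far above the other corn oil samples: Rnase10 read 10.28 where the highest of the others was 7.32, Adam7 10.66 where it was 9.57, Lcn5 9.09 where it was 7.51, Lcn8 8.42 where it was 7.18, and the opioid precursor gene Penk 9.22 where it was 7.39. The principal cell level of this array was 8.03, and the next highest corn oil sample read 7.54. Without it, the difference of Penk went from -0.14 ± 0.13 to -0.03 ± 0.10 and that of Lcn5 from -0.22 ± 0.15 to -0.11 ± 0.14.

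On DBCP recovery replicate 7 olfactory receptor probe sets were low beside the high germ cell genes: Or1f19 read 4.19 against a median of 5.94 on the other DBCP arrays, and Or13n4 6.24 against 7.94. On corn oil recovery replicate 11 Or7g23 read 4.01 against 5.76 and Or4x6 3.65 against 5.34. Over all probe sets DBCP replicate 7 had the lowest median of the recovery arrays (6.55), with quartiles of 5.78 and 7.35. Corn oil replicate 11 had a median of 6.59 and quartiles of 5.83 and 7.34. The mean of the array medians was 6.69 in DBCP and 6.67 in corn oil samples. The olfactory receptor values were not read against this spread of the whole array. The genes Smpx (8.37 against 6.87), H3f4 (8.94 against 7.23) and Tsks, a spermatid kinase substrate (8.99 against 7.52), were high on DBCP replicate 7.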
